A study of Mus musculus with 7 samples.

Results

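The proteasome subunit genes were chosen by symbol, as the protein-coding genes of GENCODE vM21 on chromosomes 1 to 19 whose names begin with Psma to Psmg and a number, which gave 49 of the 20722 protein-coding genes there. The lists of hypersensitive sites come from DNase-Seq of cultured mouse podocytes, the epithelial cells that cover the filtering capillaries of the kidney. NG podocytes were kept in normal glucose (5 mM) and HG podocytes in high glucose (25 mM), each for 36 h after growth arrest in reduced serum. HG+NT cells received a nontargeting mimic and HG+miR-93 cells a mimic of the microRNA miR-93, both at 50 nM, and 1 genomic DNA input served all groups. Each group had 2 samples, but only 1 list of peaks per condition was analysed here, so no spread between replicates can be given and all intervals cover counting error alone. In such bulk samples, fewer cells with an open site and less cutting per cell cannot be told apart. All groups were 1 conditionally immortalized line that carries a thermosensitive T antigen. It was grown with interferon gamma, a known inducer of immunoproteasome genes, and differentiated without it before the experiment. The labels give a mimic for HG cells alone, so high glucose and transfection cannot be told apart in HG+NT against NG.

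The proteasome is the protease that degrades ubiquitin-tagged proteins. Its 20S core is built of outer alpha rings (Psma genes) and inner beta rings (Psmb genes), of which Psmb5, Psmb6 and Psmb7 carry the active sites. In cells exposed to interferon these are replaced by Psmb8, Psmb9 and Psmb10 to give the immunoproteasome, which makes peptides for MHC class I. The 19S particle (Psmc ATPases and most Psmd genes) binds, unfolds and admits substrates, while Psme genes encode other activators, Psmf1 an inhibitor and Psmg1 to Psmg4 chaperones of core assembly. Transcription of the constitutive genes is driven by Nfe2l1 through antioxidant response elements and, in growing cells, by factors bound to CCAAT boxes. A member by name only is Psmc3ip, a factor of meiotic recombination, and Psma8 and Psmb11 encode core subunits of testis and thymus.

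The stretches just upstream of the constitutive catalytic genes show the elements by which this family is known, and those of Psmb10, Psme2, Psmd3, Psmd2 and Psmd14 belong to members to which the values below return. They are given 5′ to 3′ on the strand of the gene in build GRCm38 (mm10), beginning upstream of the transcription start site (TSS) of the principal transcript and holding no annotated exon. Capitals mark matches on either strand to 7 motifs, which may overlap: antioxidant response element (TGACNNNGC), CCAAT box (CCAAT), the core bound by nuclear respiratory factor 1 (GCGCATGC), ETS core (CCGGAAG), interferon-stimulated response element (ISRE) core (GAAANNGAA), the core of the gamma interferon activated site (GAS, TTCNNNGAA) and cAMP response element (CRE) core (TGACGTCA). Psmb5 lies at chr14:54618023-54618172 (minus strand), Psmb6 at chr11:70525217-70525366 (plus), Psmb7 at chr2:38644088-38644237 (minus) and Psmb10 at chr8:105938445-105938594 (minus).
Psmb5: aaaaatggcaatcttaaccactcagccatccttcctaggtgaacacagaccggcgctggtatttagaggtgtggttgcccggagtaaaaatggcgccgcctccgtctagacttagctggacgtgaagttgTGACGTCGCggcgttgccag
Psmb6: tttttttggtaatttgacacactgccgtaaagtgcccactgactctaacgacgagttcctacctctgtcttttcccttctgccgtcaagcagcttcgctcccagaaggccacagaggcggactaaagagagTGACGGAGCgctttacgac
Psmb7: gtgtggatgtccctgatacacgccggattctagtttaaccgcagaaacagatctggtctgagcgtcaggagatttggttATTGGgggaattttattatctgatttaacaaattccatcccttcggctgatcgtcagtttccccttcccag
Psmb10: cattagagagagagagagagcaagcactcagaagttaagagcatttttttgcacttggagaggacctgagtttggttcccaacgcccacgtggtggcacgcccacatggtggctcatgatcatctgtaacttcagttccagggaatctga
Psmb5 and Psmb6 each had an antioxidant response element, which began 20 and 38 nt upstream of the TSS. Psmb7 had a CCAAT box that began 71 nt upstream, and Psmb10 had none of the 7 motifs in this stretch.

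The other members shown are Psme2 at chr14:55591114-55591263 (minus), which had the highest mean percentile, Psmd3 at chr11:98682404-98682553 (plus), Psmd2 at chr16:20651502-20651651 (plus) and Psmd14 at chr2:61711544-61711693 (plus), whose pileups were among those furthest apart between lists.
Psme2: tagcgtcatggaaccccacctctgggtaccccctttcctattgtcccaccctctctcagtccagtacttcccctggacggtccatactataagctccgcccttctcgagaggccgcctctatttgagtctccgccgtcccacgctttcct
Psmd3: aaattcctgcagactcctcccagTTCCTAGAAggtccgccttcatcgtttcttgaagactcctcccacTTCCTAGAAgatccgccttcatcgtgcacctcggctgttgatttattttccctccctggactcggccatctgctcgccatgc
Psmd2: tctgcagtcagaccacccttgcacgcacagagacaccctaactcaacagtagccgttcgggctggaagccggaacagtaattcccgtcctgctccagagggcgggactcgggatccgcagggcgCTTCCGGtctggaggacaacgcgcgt
Psmd14: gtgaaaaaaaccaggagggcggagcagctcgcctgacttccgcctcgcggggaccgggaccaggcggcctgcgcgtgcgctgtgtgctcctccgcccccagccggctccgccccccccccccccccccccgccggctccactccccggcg
Psmd3 had 2 GAS cores, Psmd2 had an ETS core on the opposite strand that began 26 nt upstream, and Psme2 and Psmd14 showed no match.

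Upstream of Psmb8 and Psmb9 lie exons of neighbours or of their own longer transcripts, so for these genes only single sites are shown, with 8 bases on either side. Single sites are also shown for Psmb10, whose upstream stretch is given above. The sites are the CRE core and the GAS core upstream of Psmb8, at chr17:34197653-34197676 and chr17:34197718-34197742 (plus), the ISRE core of Psmb9 at chr17:34187691-34187715 (minus), and 2 of the 4 ISRE cores of Psmb10, at chr8:105938169-105938193 and chr8:105938112-105938136 (minus).
Psmb8 CRE core: ccggtgtgTGACGTCAgcagttcc
Psmb8 GAS core: gttgaggaTTCAAGGAAggagcgcg
Psmb9 ISRE core: aggaagaaGAAACCGAAagccgacc
Psmb10 ISRE core at 259 nt: gcaaagacGAAAGTGAAagagaaga
Psmb10 ISRE core at 316 nt: gtgggggtGAAAGCGAAagtaggaa
The sites of Psmb8 began 129 and 64 nt upstream of its TSS. Those of Psmb9 and Psmb10 lay downstream of the TSS, beginning at 57 nt in Psmb9 and at 259 and 316 nt in Psmb10.

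In the 250 nt upstream of the TSS, an ETS core was found in 12 of 49 members (24.5%), compared with 8.71% of all 20722 promoters. The gap was smaller for the other motifs: 12.2% of members and 10.1% of all for the antioxidant response element, 34.7% and 35.3% for the CCAAT box, 6.12% and 2.84% for the nuclear respiratory factor 1 core, 10.2% and 7.17% for the ISRE core, 8.16% and 6.84% for the GAS core, and 4.08% and 2.04% for the CRE core. The 6 members with an antioxidant response element were Psmb5, Psmb6, Psmc6, Psmd7, Psmd9 and Psmd12. A promoter was called rich in CpG at a ratio of observed to expected CpG of at least 0.6, in the 500 nt on either side of the TSS. That held for 40 members (81.6%) and for 48.9% of all genes. Among such promoters, 25% of members and 14.4% of all genes had an ETS core. The GC content was similar, with medians of 56.4% in members and 55.5% overall.

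**Figure D1:**
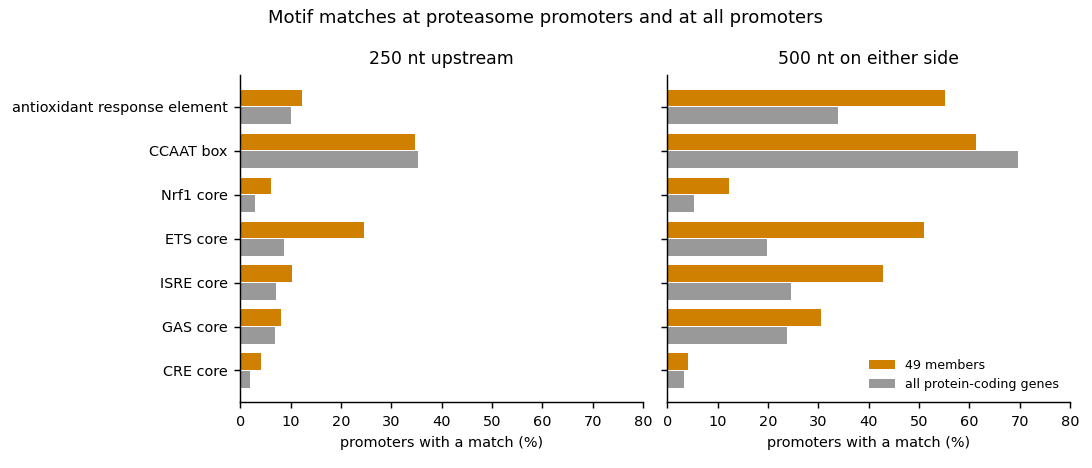
Share of promoters (%) with at least 1 match to each motif, in the 250 nt upstream of the TSS (left) and in 500 nt on either side (right), for the 49 members (orange) and all 20722 protein-coding genes (grey). The ETS core shows the widest gap in both windows, 24.5% against 8.71% upstream and 51% against 19.8% in the wide window.

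Of the 49 members, 10 (20.4%) began head to head with another protein-coding gene, with starts at most 1000 nt apart or 5′ ends that overlapped by under 500 nt, compared with 9.8% of all genes. Among these pairs are Psmb9 with Tap1, a subunit of the peptide transporter of MHC class I whose 5′ end overlaps that of Psmb9, and Psme2 with Rnf31, a ubiquitin ligase subunit, 595 nt apart. In 9 of the 10 pairs the same summits were assigned to the member and its neighbour in every list where both had one, so those pileups cannot be told apart between the pair. Members also lay near each other in 3 places, with 7288 nt between Psmb5 and Psmb11, 10026 nt between Psmb9 and Psmb8, and 12727 nt between Psme1 and Psme2.

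Values given as 3 in a row follow the order NG, HG+NT, HG+miR-93, and HG+miR-93 is also written as miR-93. There were 1036304, 846027 and 900109 listed peaks, with p-values reaching 0.9, and 73, 94 and 1 of them had a −log10 q of at least 2. Fragments at each summit were recovered from the fold and p of the peak caller, and a pileup is that number divided by the depth of the list over the input, which was 2.24 in NG, 3.85 in HG+NT and 5.15 with miR-93. Promoters of the podocyte genes given here did not stand out as a group. Nphs1 (nephrin) had a summit in HG+NT alone, Podxl with miR-93 alone, Magi2 lay between percentiles 6.91 and 40.7 of all promoters, and Cd2ap between 50.2 and 84.9. The leukocyte gene Ptprc lay between percentiles 1.02 and 3.51 and the endothelial gene Pecam1 between 6.54 and 24.7. Another leukocyte gene, Cd68, lay between 22.1 and 34.2, within the range of Magi2. The endothelial gene Cdh5 and the tubule genes Umod and Slc34a1 had a summit in NG and with miR-93 but not in HG+NT.

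Every member had a peak over the window of 500 nt on either side of a TSS in each list. So did 20706 of all 20722 protein-coding genes. The summit of a wide peak can lie far away, so a value was taken only from summits within the window. Such a summit was present for 46 members (93.9%) in NG, 45 (91.8%) in HG+NT and 44 (89.8%) with miR-93, compared with 76.2%, 72.3% and 72.3% of all protein-coding genes. All 3 lists had one for 42 members and for 11911 genes in all, and percentiles are ranks among these 11911. Summits of members lay close to the TSS. The share within 150 nt was 69.6% in NG, 62.2% in HG+NT and 65.9% with miR-93, compared with 52.6%, 57.7% and 56.1% for all promoters with a summit. By annotation, between 16 and 17 member summits per list lay upstream of the gene, 14 to 17 in untranslated exons, 6 to 7 in introns and 5 to 8 in coding exons.

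**Figure D2:**
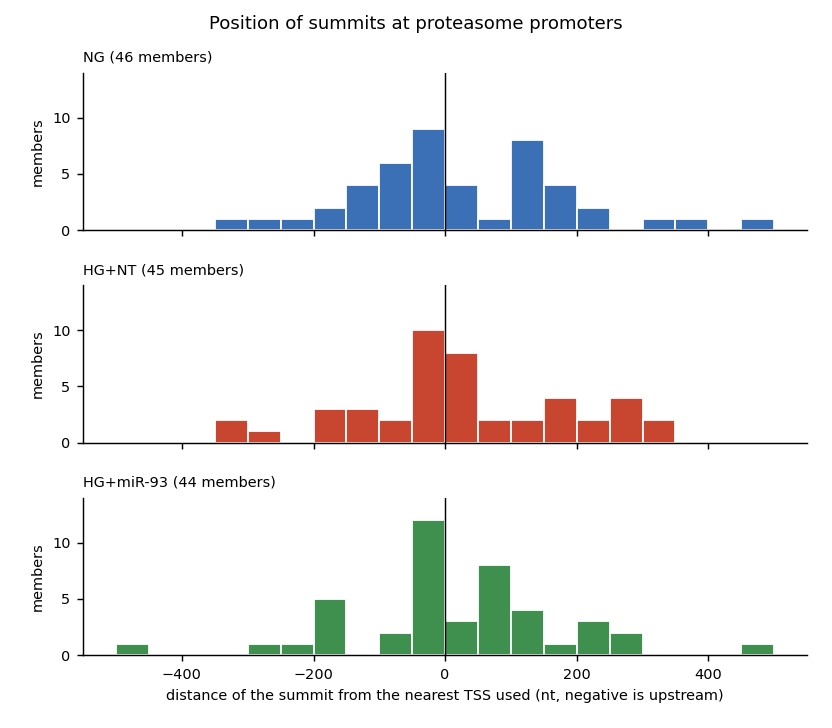
Distance (nt) of the summit from the TSS to which it was assigned, in bins of 50 nt, for the 46, 45 and 44 members with a summit in each list. In each list the bin just upstream of the TSS is the fullest, and 32, 28 and 29 members lie within 150 nt.

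Among promoters with a summit in the window, members were slightly above the middle. Their median pileup was 8.93 in NG, 6.75 in HG+NT and 6.22 with miR-93, and for all genes with a summit it was 6.7, 5.71 and 5.44. As percentiles, the medians of the 42 members were 57.7, 55.0 and 55.0, and 5, 1 and 1 of them reached the 90th percentile. Between lists, 18 members were above the 50th percentile in all 3 and 8 in none. The shares of all promoters were not counted for this, so these counts cannot be read as a trait of members. With any overlapping peak, which takes in 49 members and 20706 genes, the median percentiles were higher, at 74.1, 69.8 and 68.7. The input also had more fragments at these promoters. Its local mean, the expected number of fragments at the summit, had a median of 4, 4 and 3.9 at member summits and of 3 in each list at all promoters. Across the 42 members, which share libraries and depth, Spearman's rho of pileup with the local mean in the input was 0.471 in NG, 0.456 in HG+NT and 0.505 with miR-93. Across all 11911 promoters it was higher in each list, at 0.621, 0.577 and 0.566. As percentiles of the deposited fold, which sets the fragments against the input, the medians were 62.3, 51.7 and 48.6.

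The fold was modest at members and at all promoters. Its median was 2.16, 1.71 and 1.60 at member summits and 1.85, 1.68 and 1.59 at all promoters with a summit. The fold was at least 2 at 28 member summits in NG, 16 in HG+NT and 7 with miR-93, and below 1, so that the input had more, at 2, 4 and 4. Shares of all promoters past these limits were not counted. The highest fold of any member was at Psma3, an alpha subunit, with 4.16 in NG, 3.38 in HG+NT and 3.0 with miR-93, where the local mean in the input was 1.6. Psma3 in NG was the single member summit with a −log10 q above 0, at 0.227. It is named because of these values.

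**Figure D3:**
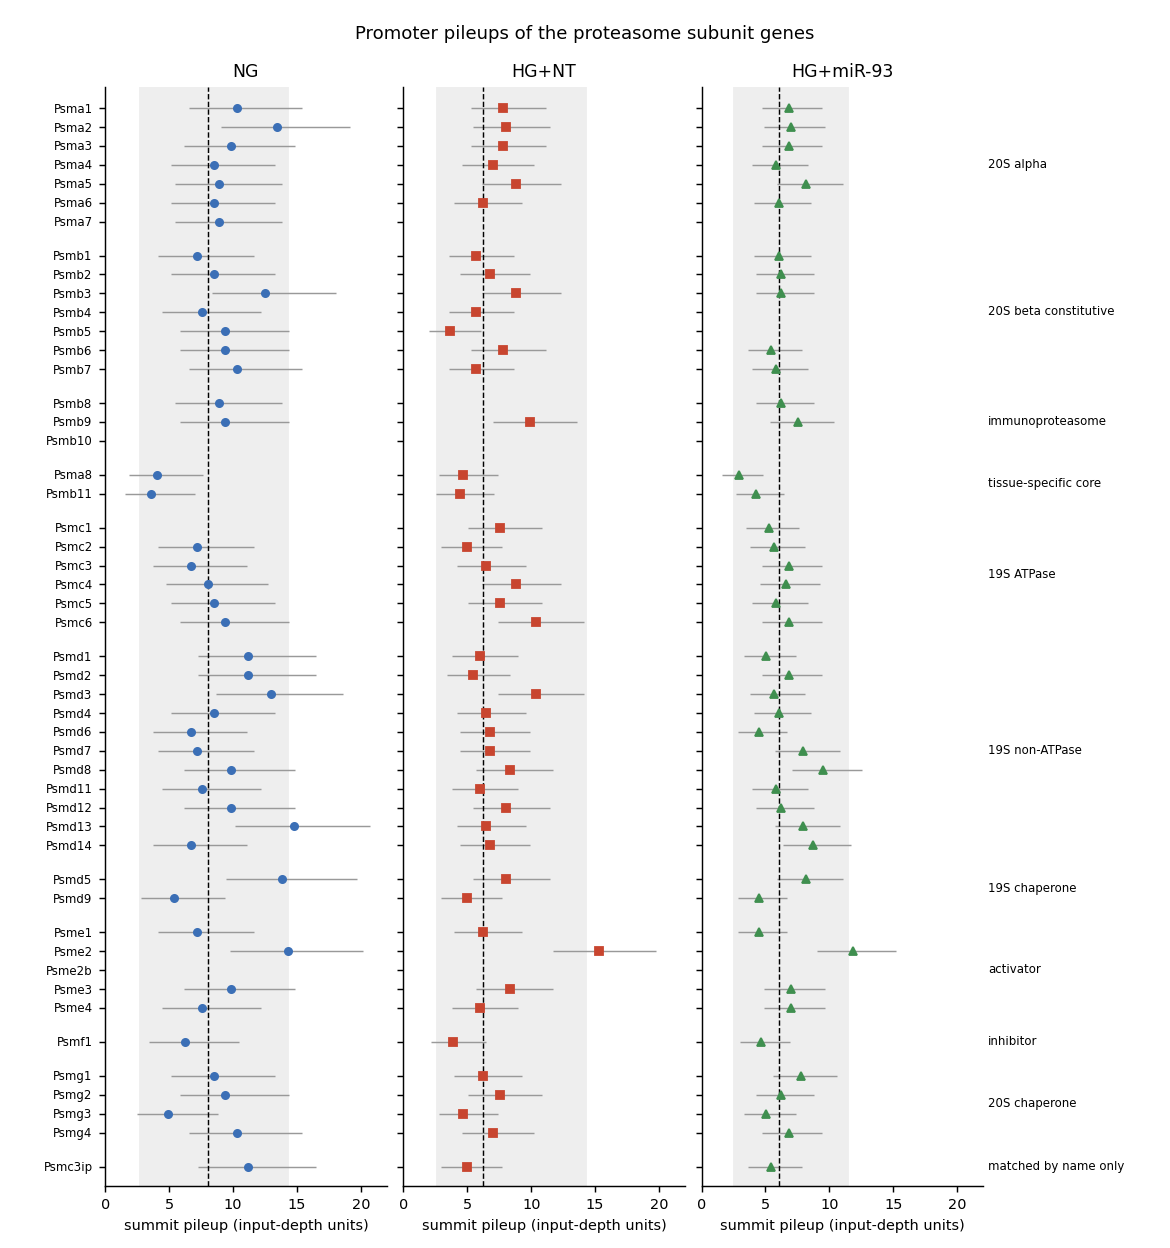
Summit pileup (fragments in units of the depth of the input) of each member in the 3 lists, ordered by class. Bars are 95% exact Poisson intervals, the dashed line is the median and the grey band the 5th to 95th percentile of the 11911 promoters, and a member without a point had no summit in the window. Most members lie near the dashed line, Psme2 lies to its right in each panel and Psma8 and Psmb11 to its left.

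The alpha subunits, which form the gate of the core, had narrow ranges. All 7 had a summit in NG, with pileups between 8.49 and 13.4, and 6 had one in both HG lists, between 6.23 and 8.83 in HG+NT and between 5.83 and 8.16 with miR-93. Psma7 was the exception, with a pileup of 8.93 in NG and the summits of its overlapping peaks 920 and 3654 nt from the TSS in the HG lists. The other 6 alpha genes lay at a median percentile of 64.8, 67.1 and 64.0.

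The 7 constitutive beta genes had pileups between 7.15 and 12.5 in NG, 3.64 and 8.83 in HG+NT, and 5.44 and 6.22 with miR-93. Among the catalytic ones, Psmb6 (β1) had 9.38 in NG, 7.79 in HG+NT and 5.44 with miR-93. The summit in HG+NT lay 35 nt upstream of the TSS, inside the antioxidant response element shown above. Psmb7 (β2) had 10.3 in NG, 5.71 in HG+NT and 5.83 with miR-93, lower in both HG lists than in NG, although the intervals overlapped (6.51 to 15.4 in NG and 3.58 to 8.65 in HG+NT). The local mean in the input was 4, 2.2 and 3 at these summits, and the fold was 2.25, 2.10 and 1.71, so NG and HG+NT differed little by fold.

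Psmb5 (β5), which carries the chymotrypsin-like activity, had a pileup of 9.38 (interval 5.81 to 14.3) in NG and 3.64 (1.99 to 6.10) in HG+NT. In HG+miR-93 no summit lay in the window, and the highest overlapping peak had 3.11 at a summit 607 nt downstream. The ratio of HG+NT to NG, divided by the median ratio of all promoters, was 0.453, and the intervals overlapped. At the NG summit, 65 nt upstream of the TSS, the input had a local mean of 12, above the 9.38 of NG, whereas at the summit of HG+NT, 299 nt downstream, it was 4.2. The part of the input in this difference was not tested. Psmb4, a structural beta subunit, had 7.59 in NG and 5.71 in HG+NT, and its summit in HG+miR-93 lay 510 nt from the TSS, just outside the window.

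The immunoproteasome genes lie in the MHC region of chromosome 17 (Psmb8 and Psmb9) and on chromosome 8 (Psmb10). Psmb9 was the single one with a summit in every list, with a pileup of 9.38 in NG (interval 5.81 to 14.3), 9.87 in HG+NT (6.98 to 13.5) and 7.58 (5.39 to 10.4) with miR-93. These values were at percentiles 64.8, 82.2 and 74.2, and the intervals overlapped between all lists. The same summits were assigned to Tap1, so the values of Psmb9 and Tap1 are one measurement. Psmb8 had 8.93 in NG and 6.22 in HG+miR-93, a ratio of 0.884 over the median of all promoters. In HG+NT a single peak of 19.7 kb reached from the Psmb9 and Tap1 promoter over Psmb8, with its summit 10330 nt away from the Psmb8 TSS, and the list gives no separate value for Psmb8.

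**Figure D4:**
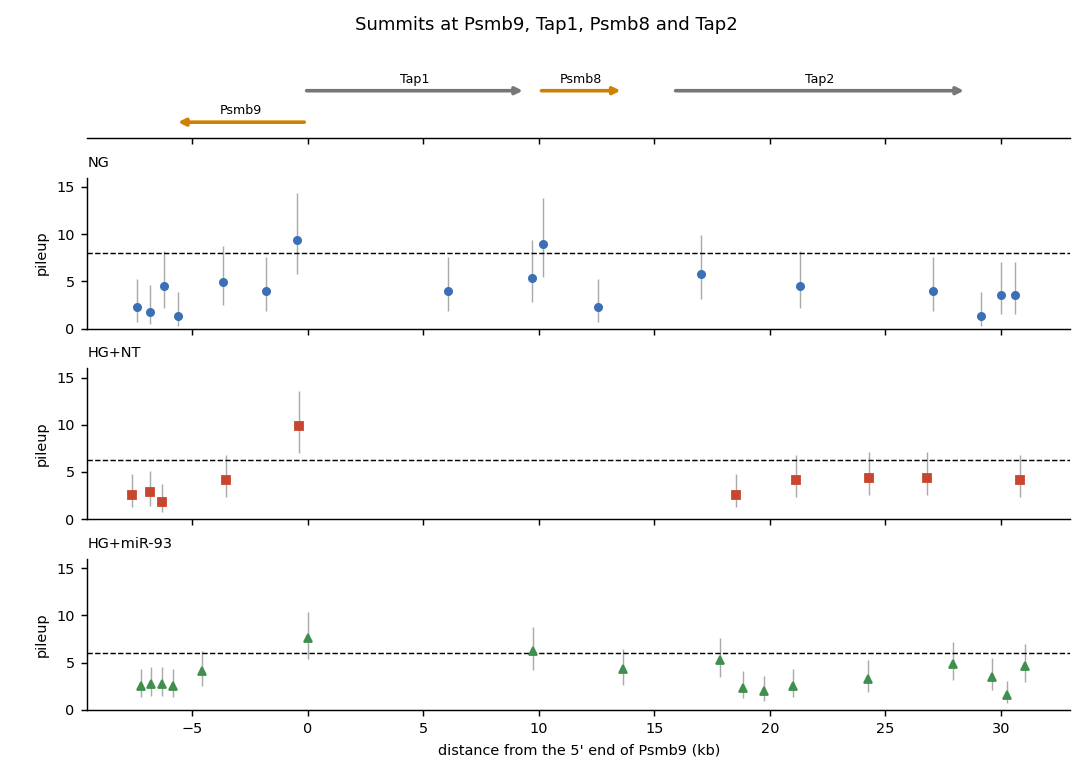
Summits of all listed peaks by distance (kb) from the 5′ end of Psmb9, with the genes as arrows and pileups with 95% exact Poisson intervals for each list. Dashed lines are the medians of all promoters. The shared start of Psmb9 and Tap1 holds the highest summit in each list (9.38, 9.87 and 7.58), and HG+NT has no summit near Psmb8.

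Psmb10 had no summit within 500 nt of its annotated TSS in any list. The peaks over its promoter had their summits 997, 1266 and 623 nt downstream, within the gene, with pileups of 9.38, 8.05 and 7.58. The 150 nt shown above had no motif, the CpG ratio over 500 nt on either side of the TSS was 0.265, and the 4 ISRE cores found in the wide window, of which 2 overlap, all lay downstream of it.

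Set beside their constitutive counterparts, the immunoproteasome genes were not clearly higher or lower where both had a summit at the promoter. Psmb9 over Psmb6 was 1.00 in NG (95% exact interval 0.52 to 1.92), 1.27 in HG+NT (0.764 to 2.12) and 1.39 with miR-93 (0.835 to 2.35). Psmb8 over Psmb5 was 0.952 (0.49 to 1.85) in NG, the one list in which both had a summit. With any overlapping peak, Psmb8 over Psmb5 was 2.71 (1.44 to 5.42) in HG+NT and 2.00 (1.07 to 3.90) with miR-93. In the former the summit counted for Psmb8 is that of Psmb9 and Tap1, and in the latter the summit for Psmb5 lies outside the window. Psmb10 over Psmb7, again with any overlapping peak, was 0.913 (0.481 to 1.73), 1.41 (0.79 to 2.55) and 1.30 (0.787 to 2.17).

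By mean percentile of the pileup, the testis and thymus genes were the lowest of the 42 members with a summit in every list. Psma8 had a pileup of 4.02 in NG, 4.67 in HG+NT and 2.92 with miR-93, and Psmb11 had 3.57, 4.41 and 4.28. Their mean percentiles were 16.4 and 18.9, and the next lowest was Psmf1, the inhibitor PI31, with 6.25, 3.90 and 4.66 and a mean percentile of 25.6. In HG+NT, Psmf1 was below both. By fold, Psma8 reached percentiles 57.2, 81.6 and 3.62 and Psmb11 1.26, 49.1 and 53.6. The local mean in the input was 1.43, 1.43 and 4 at Psma8 and 5, 2.2 and 2.2 at Psmb11.

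The ATPases of the 19S base, 6 in all and 5 with a summit in NG, had pileups between 6.70 and 9.38 in NG, 4.93 and 10.4 in HG+NT, and 5.25 and 6.80 with miR-93. Psmc6 was the highest of them in HG+NT, with 9.38, 10.4 and 6.80. Psmc1 had no summit in the window in NG, where its peak had one 642 nt downstream, and 7.53 and 5.25 in the HG lists. All 11 other subunits of the 19S base and lid had a summit in every list, at medians of 9.83, 6.75 and 6.22. The highest mean percentile among them was that of Psmd8, 76.8, with pileups of 9.83, 8.31 and 9.52.

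Of the chaperones, Psmd5, which holds the 19S base during assembly, was the second highest member, with 13.8 in NG, 8.05 in HG+NT and 8.16 with miR-93 and a mean percentile of 81.3. The 4 chaperones of the 20S core lay between 4.91 and 10.3 in NG, between 4.67 and 7.53 in HG+NT and between 5.05 and 7.77 with miR-93.

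The activators held the highest member by mean percentile. Psme2, the beta subunit of the interferon-inducible activator PA28, had a pileup of 14.3 in NG (interval 9.78 to 20.2), 15.3 in HG+NT (11.7 to 19.8) and 11.9 (9.07 to 15.2) with miR-93. These were percentiles 95.4, 96.3 and 95.9, the highest of the members on average, and the summits were those of the promoter shared with Rnf31. The input had a local mean of 8, 6 and 7 there, at percentiles 96.2, 87.7 and 93.4 of its own, and by fold Psme2 reached percentiles 35.8, 81.3 and 50.4. Psme1, which encodes the partner subunit, had 7.15, 6.23 and 4.47, well below Psme2 in each list. Psme2b, a copy of Psme2 on chromosome 11, lay under peaks of 59.8 to 59.9 kb with summits at least 7172 nt away and pileups of 2.23, 3.12 and 3.11; how its likeness to Psme2 bears on mapping was not tested.

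The design asks which sites change in high glucose and whether miR-93 changes them back. By the median over all promoters, though not at each one, pileups were lower in the HG lists. The median ratio was 0.855 for HG+NT over NG, 0.915 for HG+miR-93 over HG+NT and 0.787 for HG+miR-93 over NG. Each ratio below is divided by that median. So divided, the members' median ratio was 0.938 for HG+NT over NG, 1.01 for HG+miR-93 over HG+NT and 0.903 for HG+miR-93 over NG. With 1 list per condition there is no test of a difference, and members were instead counted at 1.5-fold or more. Overlap of intervals was judged on pileups not divided by the median of all promoters, so a shift shared by all promoters enters it. Overlap after that division was not counted.

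Between NG and HG+NT, no member was 1.5-fold higher in HG+NT (10.8% of all promoters were) and 5 of 42, or 11.9%, were lower (8.04% of all promoters were). The 5 were Psmd13, with 14.7 in NG and 6.49 in HG+NT (ratio 0.515), Psmc3ip with 11.2 and 4.93 (0.517), Psmd2 with 11.2 and 5.45 (0.571), Psmd1 with 11.2 and 5.97 (0.626) and Psmb7 with 10.3 and 5.71 (0.65). Psmd2 and Psmd1 encode the large scaffold subunits of the 19S base and Psmd13 a subunit of its lid. The input moved with the pileup at 3 of the 5. Its local mean at the summits of NG and HG+NT was 4 and 2 for Psmd2, and 4 and 2.2 for Psmd1 and for Psmb7. By the ratio of folds, again over the median of all promoters, Psmd2 was at 0.999, Psmd1 at 1.01 and Psmb7 at 1.05, so these 3 were not lower against the input. Psmd13 (0.592) and Psmc3ip (0.626) were past 1.5-fold by fold too. This comparison by fold was added after the data were seen, and the part of the input in these differences was not tested. The highest ratios were those of Psmb11 (1.45), Psma8 (1.36) and Psmc6 (1.30), the first 2 of them members with low pileups.

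By undivided pileups, Psmd13 was the member whose intervals did not overlap between NG (10.1 to 20.7) and HG+NT (4.20 to 9.58). It was 1 of 42, compared with 1.03% of all promoters. Its input had a local mean of 10 and 9 at these summits, and the fold was 1.43 in NG and 0.749 in HG+NT. In HG+miR-93 it had 7.97, with a fold of 0.996. The summits of Psmd13 were shared with Sirt3, a mitochondrial deacetylase that begins head to head with it.

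Between HG+NT and HG+miR-93, no member was 1.5-fold higher (4.39% of all promoters were) and 1 was lower (3.46% of all promoters were). It was Psmd3, a lid subunit, with 13.0 in NG, 10.4 in HG+NT and 5.64 with miR-93, a ratio of 0.593 by pileup and of 0.606 by fold. No member had intervals that did not overlap in this comparison, compared with 0.747% of all promoters. The next lowest were Psma8 (0.682) and Psmc6 (0.716), and the highest were Psmd14 (1.42), Psmd2 (1.36) and Psmg1 (1.36).

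Between NG and HG+miR-93, 2 members were higher (10.4% of all promoters were) and 5, or 11.9%, were lower (8.2% of all promoters were). The higher ones were Psmd14, the deubiquitinase of the 19S lid, with 6.70 in NG, 6.75 in HG+NT and 8.75 with miR-93 (ratio 1.66), and Psmb11 (1.52). At Psmd14 the local mean in the input was 2, 5 and 4 and the fold 2.57, 1.29 and 1.95, so the fold was lower in HG+miR-93 than in NG although the pileup was higher. At Psmb11 the pileup was higher and the fold too, with 0.762 in NG and 1.65 with miR-93. Psmd7, the lid partner of Psmd14, came next with 7.15, 6.75 and 7.97 (1.42). Psmd7 lies on chromosome 8, and promoters on chromosomes 8, 15 and 19, picked for their ratios in earlier results, had a median ratio of 1.20 in this comparison and of 1.23 in HG+NT over NG. Psmd3 (0.553) and Psmd1 (0.575) were the lowest, followed by Psmc3ip (0.619), Psmb3 (0.632) and Psma2 (0.663), of which Psmb3 and Psma2 are named because their values passed the threshold. By undivided pileups, Psmd3 had intervals that did not overlap (8.67 to 18.6 in NG and 3.77 to 8.09 in HG+miR-93). It was 1 of 42, compared with 1.9% of all promoters. Its local mean in the input was 9 at the NG summit and 5.2 at that of HG+miR-93, and the fold was 1.4, 1.9 and 1.07. By the ratio of folds, Psmc3ip (0.645) and Psmd1 (0.659) stayed past 1.5-fold among the 5 lower members, while Psmd3 (0.934), Psma2 (0.812) and Psmb3 (0.749) did not. Without division by the median of all promoters, 15 members were lower and 0 higher in HG+miR-93 over NG (28.2% and 3.7% of all promoters), and by the deposited fold 4 were lower and 5 higher in HG+miR-93 over HG+NT (9.07% and 9.01% of all promoters). Over the 3 comparisons, which share their lists in pairs, 32 of the 42 members (76.2%) stayed within 1.5-fold throughout, compared with 69.6% of all promoters.

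**Figure D5:**
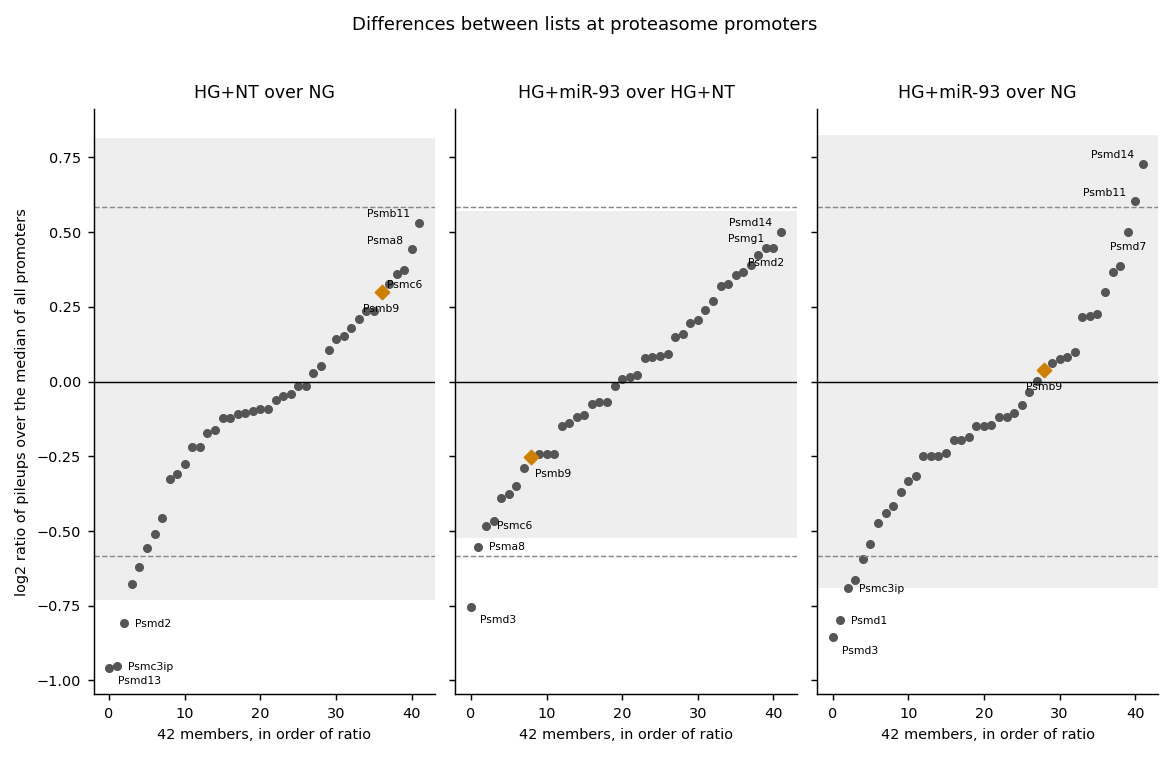
Log2 ratio of pileups over the median of all promoters for the 42 members with a summit in every list, in order of ratio in each comparison. The grey band holds the 5th to 95th percentile of all promoters, dashed lines mark 1.5-fold, and the diamond is Psmb9. Most members lie inside both limits, and Psmd13, Psmc3ip and Psmd2 (left), Psmd3 (middle) and Psmd3 and Psmd1 (right) lie lowest.

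After each list was divided by its own median, HG+NT was the highest of the 3 lists for 18 members (42.9%), compared with 43.8% of all promoters, and the lowest for 9 (21.4%), compared with 20.8%. Across the 42 members, which share libraries and depth, Spearman's rho of the pileups was 0.551 between NG and HG+NT, 0.581 between HG+NT and HG+miR-93 and 0.453 between NG and HG+miR-93, and across all 11911 promoters it was 0.812, 0.882 and 0.788.

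Each group of genes that work with the proteasome had a higher median percentile than the members (57.7, 55.0 and 55.0) in every list. The highest and lowest genes named for each group were so by mean percentile over the lists, not in every list. Of 8 genes that govern its transcription, 7 had a summit in every list, with median percentiles of 69.4, 69.7 and 78.2. Nfe2l1, which is processed into the activator of proteasome genes, was the highest of them with 15.2 in NG, 12.2 in HG+NT and 10.3 with miR-93, and Keap1 the lowest with 8.04, 4.67 and 5.44. Maff, a small partner of such activators, passed 1.5-fold in HG+NT over NG (1.61) and in HG+miR-93 over NG (1.54), and Ngly1 was lower in HG+miR-93 than in NG (0.628). By fold these ratios were 1.44, 1.10 and 0.692. Maff lies on chromosome 15, one of the chromosomes named above, and its NG summit belonged to another TSS, 544 nt from that of the HG lists.

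Of 10 genes for ubiquitin and its delivery, 8 had a summit in every list, at median percentiles of 79.2, 72.3 and 79.1. By mean percentile they ran from Rad23b, a shuttle of ubiquitinated proteins (11.2, 14.8 and 10.3), to Rps27a, a ubiquitin precursor (8.04, 4.41 and 5.44). In HG+NT over NG, Rad23b was 1.55 and Rps27a 0.642, and in HG+miR-93 over NG Ubqln1 was 0.653. By fold Rad23b was 1.89, Rps27a 0.846 and Ubqln1 0.681. The 5 subunits and partners of the proteasome with other names had 4 with a summit in every list. By mean percentile these ran from Uchl5 (10.3, 11.7 and 11.7) to Pomp (8.93, 5.71 and 5.83). Of them 1, Usp14, was lower in HG+NT over NG (0.649 by pileup and 0.832 by fold).

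Of 12 genes for antigen processing, which interferon induces with the immunoproteasome, 11 had a summit in every list, at median percentiles of 64.8, 64.2 and 69.5. By mean percentile, Calr, a chaperone of MHC class I loading, was the highest with 15.2, 19.7 and 13.4. In HG+NT over NG, Calr was higher (1.52, on chromosome 8), with a fold of 4.05, 4.15 and 3.43 and a ratio of folds of 1.16. Tapbp had a ratio of 1.53, but its summits in these lists lay at different promoters, 3888 nt apart, where the input had a local mean of 2.6 and 9, and the ratio of folds was 0.517, in the opposite direction. H2-D1, a class I heavy chain with close relatives nearby, had 18.8 in NG, 8.05 in HG+NT and 6.80 with miR-93, ratios of 0.502 for HG+NT over NG and 0.461 for HG+miR-93 over NG. Its local mean in the input was 8, 8 and 3.2 and its fold 2.20, 1.01 and 1.86, so by fold HG+NT was lower (ratio 0.518) and HG+miR-93 was not (1.03). None of these related genes passed 1.5-fold in HG+miR-93 over HG+NT.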

How the data were processed

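DNase-Seq peaks came as 1 list per condition, named as joint sets, so replicates appear to have been pooled by the authors. Per the labels and methods, reads were demultiplexed (CASAVA 1.8.2), trimmed, mapped to mm10 with Bowtie and filtered for duplicates, and MACS2 called peaks against the input with parameters that are not given in the sources used here. The deposited columns hold a score (10 times −log10 p, cut to a whole number, not used), the fold, a ratio of fragments at the summit plus 1 to the local mean of the input plus 1, and −log10 p and −log10 q of a Poisson model. The authors' counts of reads around TSSs were not analysed here.

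Fragments (k) and local mean were solved for each peak from fold and −log10 p, with k a whole number and the local mean either the background of the input (1.43) or a multiple of 0.02. All peaks had a solution and at least 99.8% a single one (100%, 100% and 99.8%), whereas mismatched folds and p-values were solved in 0.0822%, 0.0586% and 0.107%. The median summit had 6, 10 and 12 fragments in the NG, HG+NT and HG+miR-93 lists, and intervals cover counting error only. The solver and the assignment of peaks were tested against known answers on simulated data. The calls were also run on simulated data, but no limit was set for them and their rates are not given here. For each gene and list, the highest pileup with a summit within 500 nt of a protein-coding TSS was used. Analyses used Python 3.11.15, pandas 2.3.3, NumPy 2.4.6, SciPy 1.17.1 and Matplotlib 3.10.9.

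The members, gene lists and motifs were chosen with earlier results of these data known. Named were Psmb5 to Psmb10 and Tap1, the 3 highest and 3 lowest members by mean percentile, the 3 highest and 3 lowest ratios per comparison, members without a summit in some list, and the highest and lowest of each related list. Other genes were named after their values were seen, most for passing a threshold, Psma3 for its fold and Psme1 as the partner of Psme2. Some genes that this rule would name are not reported here.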

Additional observations from a re-analysis of the deposited data

How the results depend on the processing

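Each count of members is followed by the share of all promoters counted alike. Of 174 alternative values for 25 results, 131 stayed by the following rule and 43 moved. A median, a ratio or a motif share stayed if it lay within the 95% interval of the value reported. A count stayed if it was equal or, with neither 0, within a factor of 1.5. The rule is loose. With any overlapping peak the median percentiles of 74.1, 69.8 and 68.7 counted as staying, although those reported were 57.7, 55.0 and 55.0. No result moved without chromosomes 8, 15 and 19, with 1 TSS per gene, with peaks of a single solution, or with CpG-rich promoters alone, the last chosen after seeing the data. Some of these settings could move little. Without those chromosomes 41 of 42 members stayed, and with a single solution all 42 did. The CpG setting was judged on members alone, while the share of all genes with an ETS core was 14.4% there and 8.71% over all promoters. With windows of 1000 nt, 1 member was higher in HG+miR-93 over NG (10.2%). With any overlapping peak, 1 of 49 was higher in HG+NT over NG (9.48%), 3 were lower in HG+miR-93 over HG+NT (3.43%), and HG+NT was the highest list for 11 (31.9%). By the deposited fold, 3 were higher in HG+NT over NG (13.1%), 5 higher (9.01%) and 4 lower (9.07%) in HG+miR-93 over HG+NT, 1 higher in HG+miR-93 over NG (12.9%), and Psmb8 over Psmb5 in NG was 2.06, where the input was deeper at Psmb5. At single genes the fold turned the direction for Psmb7 (1.05), Psmd1 (1.01) and Tapbp (0.517) in HG+NT over NG, and for H2-D1 (1.03) and Psmd14 (0.925) in HG+miR-93 over NG. By the deposited −log10 p, 7 were higher (28.4%) and 13 lower (29%) in HG+NT over NG, 10 higher (25.9%) and 14 lower (26.9%) in HG+miR-93 over HG+NT, 14 lower in HG+miR-93 over NG (29%), HG+NT was highest for 11 (33.3%) and lowest for 15 (31.5%), Psmb8 over Psmb5 in NG was 4.14 and Psmb9 over Psmb6 in HG+miR-93 was 3.11. With a −log10 p of at least 2, 1 member among 1060 genes was left, at percentiles 33.5, 17.5 and 13.5. It was past 1.5-fold in none of the comparisons (0 lower in each, 0 higher in HG+miR-93 over NG), and HG+NT was highest for 0 and lowest for 1. Without Psmc3ip, Psma8 and Psmb11, 1 was higher in HG+miR-93 over NG (10.4%). Pileups not divided by the median of all promoters gave 8 lower in HG+NT over NG (19.9%), 4 lower in HG+miR-93 over HG+NT (7.45%), 0 higher (3.7%) and 15 lower (28.2%) in HG+miR-93 over NG, with HG+NT highest for 7 (25%) and lowest for 14 (27.9%). At 2-fold, 0 members were called in any comparison, compared with 0.747% to 3.05% of all promoters. Motifs over 500 nt on either side of the TSS were found in 55.1% of members for the antioxidant response element (33.8% of all), 61.2% for CCAAT (69.7%), 51% for ETS (19.8%), 42.9% for ISRE (24.5%) and 30.6% for GAS (23.7%).

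No paired analysis was possible because each condition has 1 pooled list and the result comes from no test. Leaving out a replicate was not run for the same reason. The cause of these moves was not tested beyond what each setting changes by its construction. A median of 20, 26 and 32 fragments at member summits limits what ratios can show.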
